A study of Mus musculus with 4 samples.

Results

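The antibody heavy and lambda variable segments were followed in kidney RNA of mice with experimental membranous nephropathy (MN). On the array used, 101 of 55681 non-control probes carried a description or name of such a segment: 98 of the heavy chain and 3 of the lambda light chain, under 93 distinct names. In membranous nephropathy, deposits of antibody with its antigen form on the outer face of the glomerular filter. All mice were BALB/C females, with an age given as 6 weeks. Both groups had been immunized with 0.2 mg of cationic bovine serum albumin (cBSA) in complete Freund's adjuvant, a mineral oil emulsion with killed mycobacteria. From 2 weeks later the MN group was injected intravenously with cBSA at 13 mg/kg, 3 times a week for 6 weeks. This schedule is longer than 6 weeks, so the age given cannot be that at its end. The control group received saline by one label and PBS by another, so the control animals also carried the antigen priming and the adjuvant. Each group had 2 arrays, 1 per sample, with control replicate 1 and MN replicate 1 on one slide and both replicates 2 on another. The labels do not say that the samples of a group came from separate animals, and p-values then measure only the spread between these samples, which may be technical.

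An antibody is built from heavy and light chains, and each chain joins a variable region, which binds antigen, to a constant region, which sets the class. The variable region of a heavy chain is assembled in each B cell from 1 of many V segments with a D and a J segment, and that of a light chain (kappa or lambda) from a V and a J segment. A clone of B cells therefore transcribes essentially a single V segment per chain, and its plasma cells, the antibody-secreting descendants, make that transcript in large amount. V segments fall into families by sequence similarity, given by the number after Ighv. Probes of a family can share long runs of bases, to a degree that differs from pair to pair.

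Levels are given as a percentage of the array's 75th percentile of signal, a scale on which only values of the same probe can be compared. A probe was read as measured where the scanner software marked it well above background, and it was tested where this held on both arrays of at least 1 group. Most segment probes were dim. Of the 101 probes, 26 were well above background on control array 1, 43 on control array 2, 33 on MN array 1 and 31 on MN array 2. The count on none of the arrays was 45 (44.6%, against 19.8% of all probes). Control array 2 detected 78.9% of all probes, against 62.2% to 64.9% on the other arrays. There were 30 segment probes to test, 21 of which were well above background on all 4 arrays, and 71 were not tested.

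**Figure D1:**
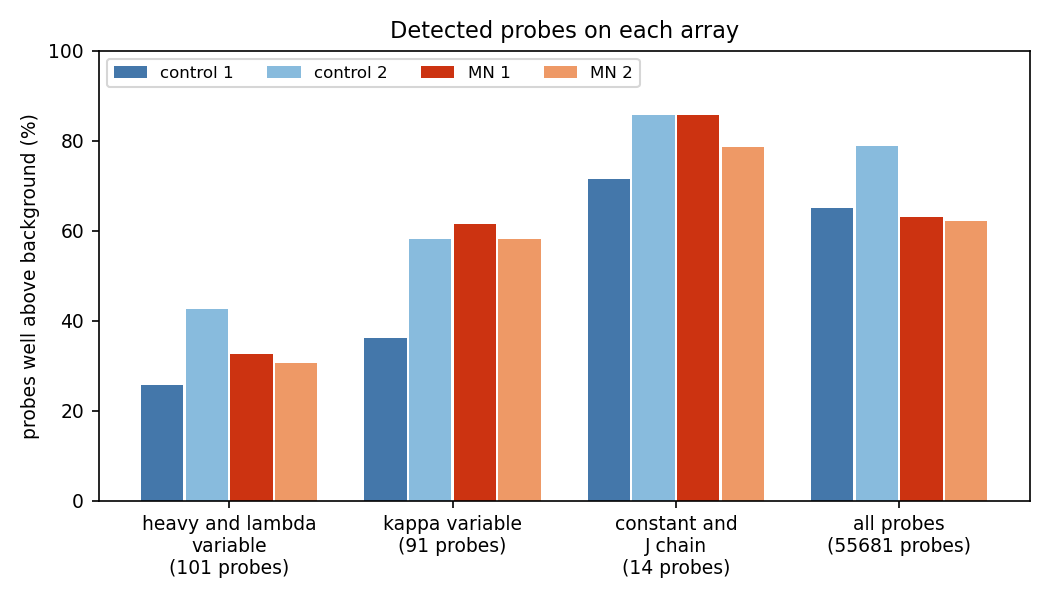
Percentage of probes marked well above background on each of the 4 arrays, for the 101 heavy and lambda variable segment probes, 91 kappa variable probes, 14 antibody constant region and J chain probes and all 55681 probes. Bars are single arrays; the segment probes lie between 25.7% and 42.6% and all probes between 62.2% and 78.9%.

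The names did not always match the probes' places in the genome. On mm9, the build of the files, 90 probes lay on the variable side of the heavy chain locus, between positions 114816899 and 117238485 of chromosome 12, 2 lay among the lambda variable segments on chromosome 16, and 4 had no position. The other 5 lay in or beside constant regions. Of these, 3 probes named Igh-VJ558 and 1 named Ighv14-2 lay within the span of the heavy constant region probes (114496985 to 114659689). The files describe both of the brighter Igh-VJ558 probes as the alpha constant region, which makes IgA, and the Ighv14-2 probe as the delta constant region, which makes IgD. The fifth, named Iglv1, lay at 19061905 to 19061964 of chromosome 16, nearer to a lambda constant probe than to a variable one. These 5 are described separately below as probes at constant regions. Through their symbols 91 probes matched the RefSeq table of assembly GRCm38.p6, as 88 V segments and 3 pseudogenes. The descriptions of 17 probes name transcripts of the strain C57BL/6, while these mice were BALB/C. How far the strain bears on which segments were detected, or on the names, was not tested.

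No segment probe passed the test of MN against control. The adjusted p was 0.124 or more for all 30 (limma, Benjamini-Hochberg over 36272 probes), where 0.0193% of all probes were called higher (7 probes) and 0% lower. Fitted with the slide as a block, no probe of any kind was called, and the smallest adjusted p among the segments was 0.161. At an unadjusted p under 0.05, 14 segment probes were higher in MN and 2 lower, against a background of 3.45% and 3.52% of all probes tested. On both MN arrays 10 were above both control arrays with a mean difference of 2-fold or more (background 0.943%), and 1 was lower by that rule (background 1.39%), the probe at the delta constant region. Of those 10, 6 were tested only through the MN arrays, being not well above background on 1 or both control arrays. All 6 were also among the 14, so both counts over tested probes favour that direction. The 2 lower ones were tested only through the control arrays. In a fit of probes measured on all 4 arrays alone, 8 segment probes had an unadjusted p under 0.05 (limma), all higher in MN. For all probes the count in either direction was 2097 of 32627. Among the 21 probes measured on all 4 arrays, 17 had a higher mean in MN (background 39.9%). Of these 21, 11 lay wholly above the controls (background 13.5%), 4 of them by 2-fold or more (background 0.653%), and 1 lay wholly below (background 18.7%). Their median log2 difference was 0.52, beside -0.05 for all probes measured on all 4 arrays. Leaving out the 5 probes at constant regions gave 13 of 16 higher and a median of 0.44.

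The largest fitted difference was in lambda. Iglv1 is the V segment of the main mouse lambda chain, and mice use few lambda V segments. Its variable region probe (A_55_P1987406, chr16:19085111-19085170, minus strand) is shown because it led the set, with the other lambda variable probe, that of Iglv3 (chr16:19241304-19241363, minus strand), beside it.
Iglv1: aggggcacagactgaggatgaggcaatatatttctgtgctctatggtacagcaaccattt
Iglv3: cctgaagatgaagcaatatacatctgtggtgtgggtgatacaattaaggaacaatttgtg
The Iglv1 probe read 1.56% and 2.68% in control and 42.3% and 45.0% in MN, replicates 1 and 2 in this order throughout. The groups did not overlap, and only the second control array was well above background. The log2 difference was 4.41 ± 0.31 (SE; limma adjusted p = 0.124), with 4.07 on slide 2, where both arrays measured the probe, and 4.76 on slide 1, which rests on a control value at background. With control array 1 set to its lowest signal that counted as well above background, the fold was 17.5. The adjusted p ranged from 0.036 to 0.588 over the alternatives and was below 0.05 in 2 of them, quantile normalization (0.036) and normexp background correction (0.038, with a log2 difference of 2.29). The files list a further transcript for this probe, and signal of a closely related lambda segment cannot be told apart from that of Iglv1. Iglv3 read 1.19% and 2.34% in control and 2.21% and 1.66% in MN, was well above background on 1 control array alone, and was not tested.

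In the heavy chain, 4 segment probes with a name and 1 listed by a transcript were well above background on both MN arrays and on neither control array. For all probes of the array this pattern was rare, at 0.0862%, while 2.25% showed the opposite one. For such probes a lower bound of the fold is given, against the lowest signal that counted as well above background on each control array, which was 2.32% and 1.51%.
Ighv1-20 read 2.08% and 0.68% in control and 10.2% and 5.79% in MN, at least 4.11-fold higher. Ighv9-3 read 0.64% and 1.57% in control and 5.04% and 10.4% in MN, at least 3.80-fold higher. The brighter MN array was the first for Ighv1-20 and the second for Ighv9-3. AY172866, a variable region transcript without a position, read 1.03% and 0.87% in control and 5.86% and 4.02% in MN, at least 2.59-fold higher. Ighv1-77 read 0.63% and 1.16% in control and 4.19% and 5.21% in MN, at least 2.49-fold higher. Ighv3-8 read 0.75% and 0.31% in control and 4.90% and 3.82% in MN, at least 2.31-fold higher. In each of the 5 both MN arrays lay above both controls, and limma's adjusted p ran from 0.274 (AY172866) to 0.551 (Ighv1-20).

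The probes of Ighv3-8 and Ighv9-3 are shown as examples of this group. That of Ighv3-8 (chr12:115560585-115560644, minus strand) ends in the conserved end of the V segment, and that of Ighv9-3 (chr12:115379078-115379137, minus strand) lies further upstream in the coding sequence.
Ighv3-8: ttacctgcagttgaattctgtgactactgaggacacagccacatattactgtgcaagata
Ighv9-3: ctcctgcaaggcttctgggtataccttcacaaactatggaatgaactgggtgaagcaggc
The run TATTACTGT, which spells the Tyr-Tyr-Cys motif at the end of many V segments, stood in 6 of the 101 probes (5.94%) when searched on the printed strand, against 0.104% of all probes. It is a description of the probe letters and was not used in any test.

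Among heavy segments measured on all 4 arrays, 3 were higher in MN by 2-fold or more. Ighv1-7 read 3.19% and 3.50% in control and 11.6% and 11.4% in MN. The replicates nearly coincided, and the log2 difference was 1.79 ± 0.15 (SE, 3.45-fold; limma adjusted p = 0.176). Ighv1-52, which the older of the annotation versions calls Ighv1-61, read 4.61% and 3.63% in control and 14.4% and 10.4% in MN, a log2 difference of 1.58 ± 0.25 (limma adjusted p = 0.405). Ighv9-2 read 4.36% and 7.72% in control and 13.7% and 12.3% in MN, a log2 difference of 1.16 ± 0.33 (limma adjusted p = 0.611). On slides 1 and 2 Ighv1-7 differed by 1.87 and 1.71 and Ighv9-2 by 1.66 and 0.67, so the second of them rested more on slide 1.
The probes of Ighv1-7 (chr12:115776734-115776793, minus strand) and Ighv1-52 (chr12:116383750-116383809, minus strand) share a run of 27 bases, in capitals. Their signals may therefore not be independent of each other, which was not tested.
Ighv1-7: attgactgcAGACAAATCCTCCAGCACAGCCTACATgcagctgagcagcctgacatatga
Ighv1-52: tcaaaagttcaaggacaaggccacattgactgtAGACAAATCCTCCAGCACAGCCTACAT
Such sharing was common: 53 of the 101 probes held a run of 20 bases or more in common with another of them.

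Smaller differences in the same direction, with both MN arrays above both controls, came from Ighv14-3, Ighv1-64, Ighv1-85 and Ighv1-67. Ighv14-3 read 11.8% and 15.1% in control and 24.4% and 21.7% in MN, a log2 difference of 0.79 ± 0.20. For Ighv1-64, Ighv1-85 and Ighv1-67 the log2 differences were 0.78, 0.77 and 0.67, and limma's adjusted p for the 4 ran from 0.567 to 0.868. Ighv1-64 and Ighv1-85 barely cleared the controls, with 6.66% on the higher control array against 7.30% on the lower MN array for the first and 5.44% against 5.50% for the second.

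Other heavy segments measured on all 4 arrays showed no such separation. Ighv10-3 read 29.2% and 32.6% in control and 29.6% and 34.0% in MN, a log2 difference of 0.04 ± 0.16. Igh-V3660 read 31.9% and 31.5% in control and 33.1% and 29.2% in MN, a difference of -0.03 ± 0.15. AY171990, another variable region transcript, read 19.8% and 23.4% in control and 16.4% and 21.3% in MN, a difference of -0.20 ± 0.21. The signs of Ighv10-3 and Igh-V3660 turned under some alternatives. In these 3 the groups overlapped. The probes Ighv1-56, Ighv5-2 and one of Ighv5-17 likewise overlapped, with log2 differences of -0.15, 0.07 and 0.18. These 3 were not named by the rule for the probes in the text and were chosen after their values were seen.

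In the other direction 2 segments were well above background on both control arrays and on neither MN array. Ighv1-24 read 4.76% and 6.56% in control and 2.92% and 3.04% in MN, at least 1.79-fold lower in MN. Ighv8-12 read 5.41% and 4.30% in control and 2.97% and 2.47% in MN, at least 1.54-fold lower in MN. The groups were apart in both, and limma gave adjusted p values of 0.543 and 0.557.

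**Figure D2:**
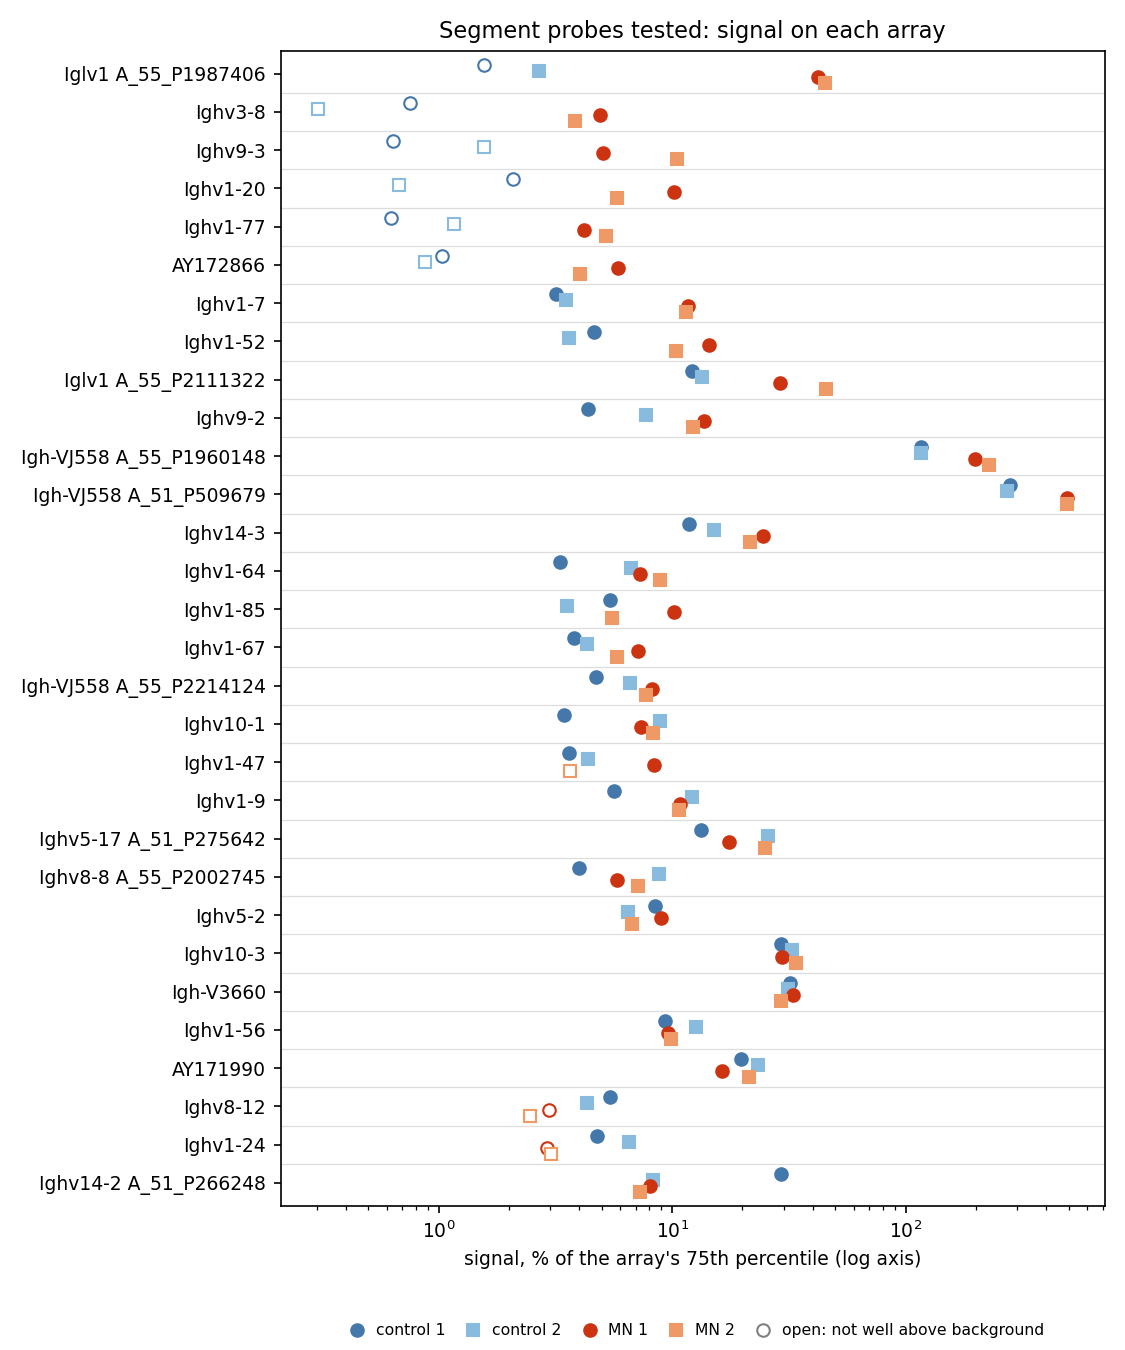
Signal of the 30 tested segment probes on each array, as a percentage of the array's 75th percentile on a log axis, ordered by the difference of MN minus control. Each point is 1 array and open points were not well above background; the Iglv1 variable probe stands at 1.56% and 2.68% in control and at 42.3% and 45.0% in MN.

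By family, Ighv1 was the largest, with 39 probes of which 11 were tested and 4 were higher by 2-fold or more with no overlap (Ighv1-20, Ighv1-77, Ighv1-7 and Ighv1-52). Both tested probes of Ighv9 were in that class, of 4 on the array, and so was the 1 tested probe of Ighv3, of 5. Of all probes tested, 0.943% were in that class. However, Ighv1-20, Ighv1-77, 1 of the tested Ighv9 probes and the tested Ighv3 probe were tested only through the MN arrays. Probes tested in that way favour the class. The 2 tested probes each of Ighv5, Ighv8 and Ighv10 held 0 in that class, and 0 of 8 probes of Ighv2 could be tested. The families Ighv6 and Ighv7, with 4 probes each, had none to test. With so few probes a family the counts were not compared by a test.

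The differences were similar on both slides for the segments furthest apart. Of the 10 probes higher by 2-fold or more with no overlap, however, 6 were tested only through the MN arrays. For these the difference on 1 or both slides was MN signal against a control value at background. Of the 30 tested probes 19 were higher in MN on both slides and 4 were lower on both, and for the 21 measured on all 4 arrays the counts were 13 and 2. The other 7 probes were all higher in MN on slide 1 and lower on slide 2. No share over all probes is given for these counts. The control array of slide 1 detected fewer segments (26) than that of slide 2 (43), and the part of this in the slide difference was not tested.

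**Figure D3:**
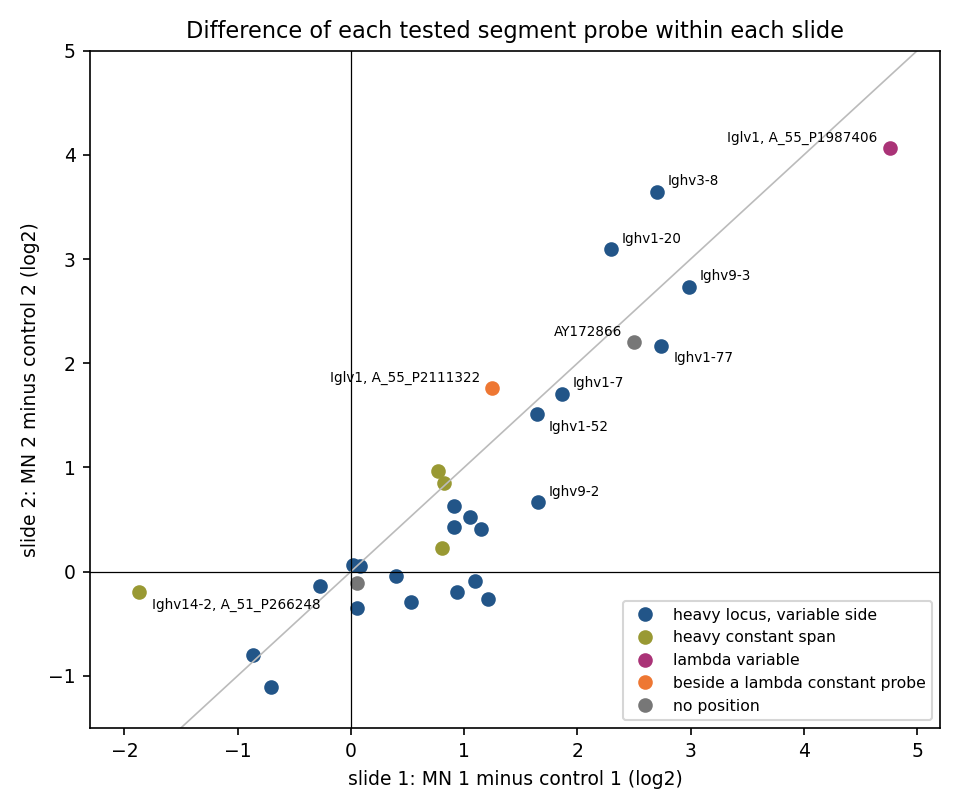
Log2 difference of MN minus control for each of the 30 tested segment probes within slide 1 (x axis) and slide 2 (y axis), coloured by genomic place; the grey line marks equal differences. Of the points 19 lie above 0 on both axes and 4 below 0 on both, and the Iglv1 variable probe is the furthest out at 4.76 and 4.07.

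Some segments were high on a single array. In MN, 6 of 101 probes (5.94%) were well above background on 1 array and 4-fold or more lower and not above background on the other, against 1.48% of all probes. Of these, 5 were not above background on either control array (4.95%, against 0.566%). In control 2 probes showed this (1.98%, against 2.35%), and 1 of them was not above background in MN (0.99%, against 1.83%). The shares in MN and control were not compared by a test, and each of these probes was a single spot per array. Ighv2-5 was the most uneven, with 32.3% on MN array 1 and 0.78% on MN array 2, beside 0.96% and 1.01% in control. On MN array 1 it was at least 10.3-fold above MN array 2. Ighv3-5, Ighv1-81 and Ighv1-54 were high on the other MN array, at 8.71%, 6.47% and 4.60%, with 0.72%, 0.84% and 0.75% on MN array 1. DQ113493, a variable region transcript, was high on MN array 1 (5.99% against 0.99%). Ighv1-14 was high on control array 2 alone, at 10.5% against 0.65% on control array 1. Ighv1-22 was high on the first array of both groups, at 7.70% in control and 5.26% in MN, and near 0.46% and 0.96% on the second.

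The uneven probes can be set beside near neighbours in sequence. The probe of Ighv2-5 (chr12:114923693-114923752, minus strand) differs from one of Ighv2-2 (chr12:114826478-114826537, minus strand) at 3 of 60 bases, in capitals, yet that Ighv2-2 probe was not well above background on any array.
Ighv2-5: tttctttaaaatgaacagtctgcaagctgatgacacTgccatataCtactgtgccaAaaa
Ighv2-2: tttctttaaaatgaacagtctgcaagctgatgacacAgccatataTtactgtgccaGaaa
Counted from the 5′ end of the Ighv2-5 probe, the substitutions are T37A, C46T and A57G. The probes of Ighv1-77, high on both MN arrays, and Ighv1-54, high on MN array 2 alone, share a run of 33 bases, in capitals, at different places along the probe (chr12:117100209-117100268 and chr12:116432036-116432095, both minus strand).
Ighv1-77: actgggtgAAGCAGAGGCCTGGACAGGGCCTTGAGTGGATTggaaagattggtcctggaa
Ighv1-54: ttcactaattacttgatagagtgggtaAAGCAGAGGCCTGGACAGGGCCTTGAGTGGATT
Ighv1-20 and Ighv1-2 share 31 bases in the same way, and Ighv1-2 was well above background on MN array 1 alone (4.42%, with 1.18% on MN array 2), the array on which Ighv1-20 was the brighter. How much of any signal came from a related segment was not tested.

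**Figure D4:**
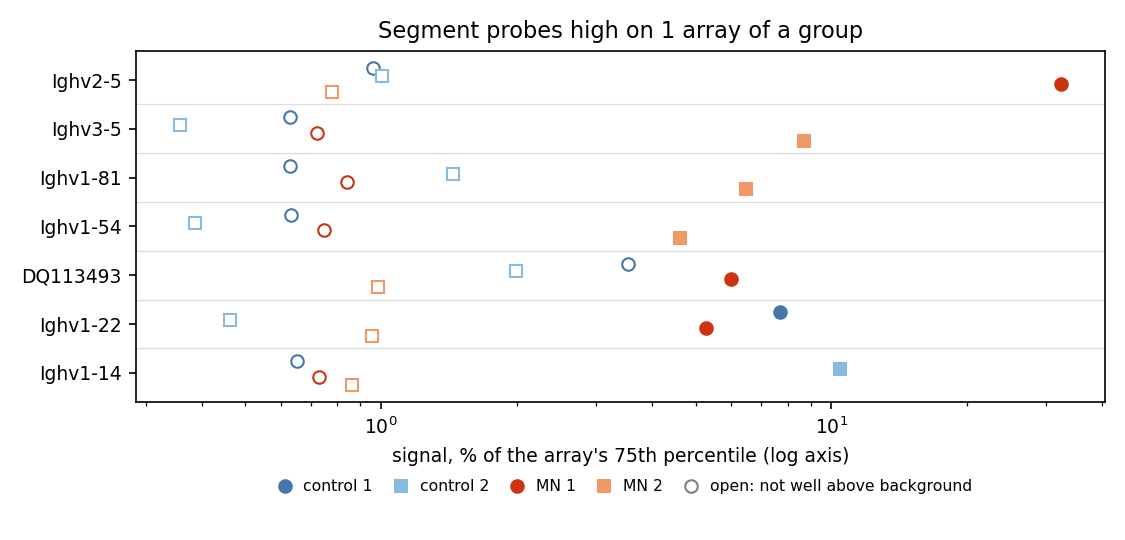
Signal of the 7 segment probes that were 4-fold or more higher on 1 array of a group, as a percentage of the array's 75th percentile on a log axis. Each point is 1 array and open points were not well above background; Ighv2-5 reads 32.3% on MN array 1 and between 0.78% and 1.01% elsewhere.

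The 5 probes at constant regions included the brightest of the set. The Igh-VJ558 probe A_51_P509679, at the alpha constant region (chr12:114496985-114497044, minus strand), is shown since its name gives a V segment and its sequence lies elsewhere.
Igh-VJ558: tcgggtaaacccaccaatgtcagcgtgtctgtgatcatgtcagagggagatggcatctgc
It read 279% and 273% in control and 492% and 493% in MN, a log2 difference of 0.84 ± 0.14 (limma adjusted p = 0.413). The second alpha probe read 116% on both control arrays and 199% and 228% in MN, a difference of 0.87 ± 0.15 (limma adjusted p = 0.439). The pair gave nearly the same difference, with no overlap between groups. The third Igh-VJ558 probe was at 0.52 ± 0.22. The probe named Ighv14-2 at the delta constant region read 29.3% and 8.31% in control and 8.02% and 7.27% in MN. Its log2 difference of -1.03 came from control array 1, as the slides gave -1.87 and -0.19, and without that array the difference was -0.12. The probe named Iglv1 that lay nearer to a lambda constant probe read 12.2% and 13.5% in control and 29.0% and 45.8% in MN. Its difference was 1.51 ± 0.27 (limma adjusted p = 0.447).

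A further Ighv14-2 probe (A_51_P117903), on the variable side of the locus, was spotted 10 times on each array and shows the spread of a dim segment between spots. Its mean over spots was 0.84% ± 0.35 and 1.27% ± 0.62 (SD of 10 spots) in control and 3.94% ± 1.69 and 3.31% ± 1.07 in MN. Well above background were 0 and 3 of 10 spots in control and 3 and 1 in MN. The means were higher in MN, while most spots on every array were at a level the scanner software did not tell from background.

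Over all 101 probes, detected or not, the median log2 difference was 0.52 (0.28 on slide 1 and 0.41 on slide 2), against -0.05 for all probes. It was also 0.52 over the 21 probes measured on all 4 arrays, because both medians fell on the same probe, the third Igh-VJ558 probe, at a constant region. Without the 5 probes at constant regions the medians were 0.50 over all probes left and 0.44 over those measured on all 4 arrays. The 45 segment probes not well above background on any array had a median difference of 0.61, and the 11003 such probes of the whole array had 0.34. The level of those 45 had a median of 0.65% and 0.67% in control and 0.79% and 0.87% in MN, where the scanner software's values for spots at background also lay higher. With normexp background correction the median of the 101 turned to -0.081, with all probes at -0.14. Only 2 probes, both named Iglv1, then remained 2-fold or more above control, the variable region probe and that at a constant region. That correction adds 50 to each signal, which by construction shrinks differences of dim probes. Ighv1-7, for example, was at 0.62 and Ighv3-8 at 0.49. Shrinking alone does not turn a sign. The probes not well above background on any array turned as well, to a median of -0.16 for the 45 segment probes and -0.27 for the 11003. The 75th percentile of the arrays lay between 737 and 1204, highest on MN array 2. How far the scaling of the added 50 turned the medians was not tested.

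The other parts of the antibody chains were measured on the same arrays. Of 91 kappa variable probes 55 were tested and 2 were called higher (background 0.0193%), both for the same segment, Igkv3-10. In MN 45 had a higher mean, and 30 were higher by 2-fold or more with no overlap (background 0.943%). Probes tested only through the MN arrays favour that direction here too. Among the 27 kappa probes measured on all 4 arrays, 21 had a higher mean in MN (background 39.9%). Of 14 constant region and J chain probes, J chain being the link of IgM and IgA polymers, 12 were tested, 0 were called, and 9 were in that 2-fold class, with log2 differences from -0.14 to 9.17, the highest from a probe not above background in control. By one of its 2 probes Ighg1, the IgG1 constant region, read 0.87% and 1.58% in control and 596% and 765% in MN, at least 352-fold higher. The other Ighg1 probe read 1.46% and 2.02% in control and 71.3% and 52.3% in MN, a smaller log2 difference of 5.15. Igkc, the kappa constant region, read 107% and 75.3% in control and 1571% and 1609% in MN. The Ighm probe, for the IgM constant region, read 16.5% and 13.7% in control and 16.1% and 14.3% in MN. The lambda constant probes, 3 in number, were at 1.11, 1.11 and 1.24. Differences of the segments from these parts were not tested, as probes are not replicates of a condition.

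Genes of B lineage cells other than the antibodies were measured beside these. Of 14 plasma cell markers 12 were tested, 0 were called, and the median log2 difference was 0.06. Their summed level was 6245% and 5604% in control and 6872% and 6164% in MN, most of it from Xbp1 (3457% and 3262% in control, 4077% and 3538% in MN) and Eaf2, which differed by 0.18 and 0.05. Derl3, a protein quality-control factor of secretory cells, was at 1.19, Mzb1, an antibody-folding cofactor, at 0.85, and Sdc1, the plasma cell surface marker that kidney epithelium also makes, at -0.42, with 0 past the threshold. Tnfrsf17, a receptor of plasma cells, was not well above background on any array. Of 16 B cell markers 14 were tested, 0 were called, and the median was -0.24, with sums of 487% and 490% in control and 397% and 474% in MN. The B cell genes furthest apart were H2-Ob at -1.44 (with 1.32 from another of its 3 probes), Cxcr5, at least 1.20-fold lower in MN, and Fcmr at -0.79. The genes that cut and join segments or mutate them, with the surrogate light chain, gave a median of -0.19 over 7 tested of 9. Of the 7, 2 were higher and 5 lower. Furthest apart were Rag2 at -1.04 (with 0.28 from the other of its 2 probes), Ung at -0.82 and Vpreb3 at -0.54, with 0 called. Rag1, which makes the cut, and Igll1 were not above background on any array. In whole-kidney RNA more cells of a type and more RNA per cell cannot be told apart.

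Markers of tissue that can adhere to a kidney moved with the groups in part. Of 10 adipose markers 9 were tested, with a median of 0.40. Of the 9, 5 were higher and 4 lower, the lower ones between -0.30 (Pck1) and -0.09. Called higher were 2 (background 0.0193%), Cfd at 6.93 (2.56% and 3.17% in control, 302% and 398% in MN) and Adipoq, at least 22.9-fold higher. Both were tested only through the MN arrays and had an adjusted p of 0.093 when the slide was a block (limma). Retn was at least 23.7-fold higher without passing, and Ucp1 was not above background. The summed adipose level was 19563% and 32246% in control and 19140% and 23110% in MN, most of it from Pck1 (17547% and 30452% in control, 16871% and 20867% in MN), an enzyme that kidney tubules also make, so the sum does not follow Cfd, Adipoq and Retn. Lymph node stroma and vessel markers had a median of 0.04 over 5 tested of 8, with Cxcl13, which attracts B cells, at 1.01, Madcam1 at -0.26 and Ccl19 at -0.26 (0.12 from another of its 3 probes), and Glycam1, a marker of lymph node vessels, was not above background on any array. T cell markers had a median of -0.18 over 12, with Cd8b1 at -0.59 and Cd2 at -0.25. Erythroid markers, which follow blood and marrow cells, had a median of 0.39 over 8 tested, with Ahsp at 1.38, Hemgn at -0.96 and Alas2 at 0.78. All 10 kidney markers were detected and had a median of -0.02. The part of adhering tissue or blood in the segment differences was not tested.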

How the data were processed

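Cy3-labelled kidney RNA of 4 samples, 2 per group, was read on 1-colour Agilent mouse arrays of 60-base probes. The deposited scanner files give each spot's linear intensity. Background was subtracted, and spots at background were given surrogate values, by Agilent Feature Extraction 10.5.1.1, per the file headers (6.91% to 20.0% of non-control spots). The deposited value table of the authors holds log2 values, and the sources used here do not say how they were made. Its columns for replicates 1 and 2 matched the scanner file of the other replicate in both groups, which is unexplained. It served only as an alternative, and group means do not depend on the order.

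Control spots and non-uniform spots were left out, spots of a probe were averaged, and log2 signal was scaled to each array's 75th percentile. The test was limma's moderated linear model (version 3.58.1, R 4.3.3), two-sided, with p-values adjusted by Benjamini-Hochberg over 36272 probes (threshold 0.05, 2 residual and 2.06 prior degrees of freedom). In a check on simulated data the test recovered none of the smaller changes and only part of the larger ones. A probe that was not called may therefore still have changed. The 4 arrays limit the precision, and no spot was saturated. Members were found by description or name in either annotation version, that of slide 2 giving names and positions. Same-numbered arrays shared a slide and scan per the file headers and deviated together (r = 0.59 over probes), so the slide block is printed where it changes a count.

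Probes named in the text were those past the threshold, the largest differences measured on all 4 arrays without overlap, the largest lower bounds, the 6 brightest, and every lambda probe. The 3 genes with the largest differences of each marker list were also named where reported here, beside those not above background on any array. Members and lists were chosen with earlier results of these data known. Alternatives were normalization, background correction, the deposited table, detection filters, 1 probe per name, variance trend, threshold, slide block and leaving out each array.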

Additional observations from a re-analysis of the deposited data

How the results depend on the processing

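With 2 arrays a group and dim probes, signal over background limits these results. For all probes, the count called was 7 and became 23 with quantile normalization, 12 when arrays were scaled to their detected probes' median, 21 with normexp, 0 without a detection filter, 0 for probes detected on all 4 arrays, 18 and 17 with a variance trend without and with the robust option, 28 at a threshold of 0.1, 0 with the replicate block, and 0 to 0 on leaving out each array. For segment probes the count called was 0, 1 with quantile normalization and 1 with normexp (the Iglv1 variable probe in both), and 0 to 0 on leaving out each array. The median log2 difference of 0.52 became 0.32 with quantile normalization, -0.081 with normexp, and 0.34 to 0.52 on leaving out each array. The count of segments higher by 2-fold or more was 10, with 2 under normexp, 18 without a filter, 4 for probes detected on all 4 arrays, and 10 to 12 on leaving out each array. The alternatives chosen after seeing the data, leaving out the 5 probes at constant regions (9 of 25 in the 2-fold class, median 0.50) and using only probes detected on all 4 arrays (median 0.52), changed no direction. Over 335 values of 23 named probes, 4 were reversed. Ighv10-3, at 0.04, lay between -0.058 and 0.14 on leaving out each array, with -0.037 without control replicate 1. Igh-V3660, at -0.03, was at 0.029 with normexp and between -0.12 and 0.062 on leaving out each array. The replicate block changed no call of the 23 named segment probes.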

Other observations

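Outside the rule, 4 probes described in other words as heavy chain V regions lay on the variable side of the same locus. L20961 (chr12:115272062-115272121) was measured on all 4 arrays and read 3.91% and 3.48% in control and 7.94% and 6.59% in MN, a log2 difference of 0.97 with no overlap (limma adjusted p = 0.447). HF569735, from an IgA heavy chain of the BALB/c strain, was not above background on any array. L39085 and X80960 were each well above background on 1 control array alone. These probes were picked after the files were seen and enter no count.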
